A study of Mus musculus with 6 samples.

Results

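Small leucine-rich proteoglycans (SLRPs) are described here from 6 microarrays, each holding Cy5-labelled RNA of ICR mouse gonad or testis cells, with 2 arrays in each of 3 groups. The members were chosen by name: 10 genes, Dcn, Bgn, Aspn, Lum, Fmod, Prelp, Kera, Omd, Ogn and Epyc, which 11 of the array's 26423 probes carry as their gene symbol, out of 19084 symbols in all. PGC colony arrays held RNA of picked colonies that gonadal cells of 67 embryos at E11.5 had formed over 7 days in 5% O2. GSC colony arrays held RNA of colonies that testicular cells of 80 newborn to P2 mice had formed in the same way. Both kinds of colony grew on laminin at 200 ng/cm2 in MCDB-201 medium with insulin, transferrin, selenium and epidermal growth factor at 10 ng/ml. CD49f+ sorted arrays held RNA of cells from 100 newborn to P2 mice, taken from testis by magnetic sorting for CD49f with no culture and labelled as being in physiological hypoxia, with no oxygen value. The labels read PGC as primordial germ cells and GSC as glandular stem cells. Cells of many animals were pooled, the labels name no genetic change in any group and give no sex for the embryos, and separate preparations for the 2 arrays of a group are not mentioned. The p-values thus reflect array-to-array spread alone, and that spread may be technical.

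SLRPs are secreted proteins of the extracellular matrix, built around a curved row of leucine-rich repeats. Most carry chondroitin, dermatan or keratan sulfate chains, bind collagen, and control how collagen fibrils assemble and how wide they become. Several also bind growth factors of the TGF-beta family, and decorin and biglycan are known ligands of cell surface receptors. In the human testis, decorin is known as a product of the cells of the peritubular wall.

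In the RefSeq gene order of assembly GRCm38.p6, most members are neighbours. Dcn, Lum, Kera and Epyc follow each other on chromosome 10, and Aspn, Omd and Ogn on chromosome 13, next to the related gene Ecm2. Prelp and Fmod are neighbours on chromosome 1, beside Optc, and Bgn lies on chromosome X. The promoter windows of the chromosome 13 run and of Bgn are shown first, because Aspn, Omd and Ogn stand side by side and yet gave 3 different patterns, and Bgn had the largest difference between colonies and sorted cells. Each window spans 300 bases around the annotated start in RefSeq GRCm38.p6, most of them upstream, written 5′ to 3′ on the gene's strand, with capitals for matches to TATAAA or ACGTG on either strand.
Aspn, chr13:49544193-49544492, + strand: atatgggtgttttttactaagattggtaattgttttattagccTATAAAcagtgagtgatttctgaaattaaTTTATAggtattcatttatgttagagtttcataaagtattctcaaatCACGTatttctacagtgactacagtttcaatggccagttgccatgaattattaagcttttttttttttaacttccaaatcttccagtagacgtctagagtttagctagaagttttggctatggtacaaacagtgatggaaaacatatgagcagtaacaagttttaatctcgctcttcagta
Omd, chr13:49582212-49582511, + strand: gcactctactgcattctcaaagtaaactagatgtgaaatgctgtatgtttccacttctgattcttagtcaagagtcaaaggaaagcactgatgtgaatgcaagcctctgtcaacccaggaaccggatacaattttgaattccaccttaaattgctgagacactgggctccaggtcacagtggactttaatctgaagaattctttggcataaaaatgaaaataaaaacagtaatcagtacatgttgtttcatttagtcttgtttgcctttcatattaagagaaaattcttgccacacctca
Ogn, chr13:49607765-49608064, + strand: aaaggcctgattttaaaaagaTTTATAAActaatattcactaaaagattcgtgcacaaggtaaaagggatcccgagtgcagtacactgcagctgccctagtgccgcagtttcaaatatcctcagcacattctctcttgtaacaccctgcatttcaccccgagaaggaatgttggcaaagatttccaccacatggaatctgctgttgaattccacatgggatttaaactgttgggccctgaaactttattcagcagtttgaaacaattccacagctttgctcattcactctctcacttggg
Bgn, chrX:73483351-73483650, + strand: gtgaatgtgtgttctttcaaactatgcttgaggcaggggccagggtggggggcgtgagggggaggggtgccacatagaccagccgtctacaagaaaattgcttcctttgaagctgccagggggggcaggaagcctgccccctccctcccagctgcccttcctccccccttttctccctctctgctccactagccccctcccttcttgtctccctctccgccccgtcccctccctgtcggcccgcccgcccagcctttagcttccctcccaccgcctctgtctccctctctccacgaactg

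The RefSeq promoter table held 8 of the 10 members, and Dcn and Lum, which it lacked, were not searched. TATAAA, the core of the TATA box, was found on either strand in 2 of them, Aspn and Ogn, and in 13.6% of all 32851 promoter windows of this length. In Aspn the matches began 207 and 178 bases before the start. In Ogn the matches on the opposite strands began 229 and 227 bases before it and overlap each other. ACGTG, 1 form of the core letters that hypoxia-inducible factors bind, was found in 19.6% of all windows. Aspn held it once, 131 bases before the start, and Epyc once, in 1 of its 2 windows. Other forms of that core were not searched. CAGAC, letters bound by SMAD proteins, was found in Fmod and Prelp, and in 49.6% of all windows. The Bgn window held none of the 3 motifs as searched and was 63.7% G and C, against 31% for Aspn, 37.7% for Omd and 42.3% for Ogn. A match is a description of letters and not of a bound site.

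Across the arrays as a whole, the median deposited intensity was 541 to 587 on PGC colony arrays, 558 to 606 on GSC colony arrays and 393 to 406 on sorted arrays. Arrays of a group correlated at Pearson's r of 0.976 to 0.990 across genes, which are not independent replicates. Values below are log2 intensity after normalization between arrays, and 15459 genes were tested, those with at least 2 of 6 arrays at or above the 30th percentile of their array (7.82 on this scale). Of the members, 8 passed this filter. Calls use limma with p-values adjusted by Benjamini-Hochberg over all genes tested, and a threshold of 0.05. Marker lists of cell types were also read at this level. By definition most probes of an array lie at or above its 30th percentile. Such counts alone thus do not show that a cell type was present. Germ cell markers were at or above the 30th percentile in 8 of 12 cases on PGC colony arrays, 10 of 12 on GSC colony arrays and 9 of 12 on sorted arrays. Dazl, Dppa3, Zbtb16 and Ret lay under it on both PGC colony arrays. Dppa3, Zbtb16 and Ret also lay under it on both sorted arrays, and Dppa3 and Ret on both GSC colony arrays. On both sorted arrays all 9 Sertoli, all 7 endothelial and all 10 macrophage and leukocyte markers lay at or above it. On the colony arrays, 8 or 9 of the Sertoli and 6 or 7 of the endothelial markers did so too. For macrophage and leukocyte markers the count was 8 or 9 on PGC colony arrays and 4 or 5 on GSC colony arrays.

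Class I members, which carry chondroitin or dermatan sulfate chains in the case of decorin and biglycan, were much brighter in both kinds of colony than in sorted cells. In bulk RNA such as this, fewer cells of a type and less RNA per cell cannot be told apart. Bgn encodes biglycan, which binds collagen and, as a soluble protein, Toll-like receptors. It measured 17.43 and 17.18 on the PGC colony arrays, 17.58 and 17.58 on the GSC colony arrays, and 12.24 and 11.99 on the sorted arrays. Every colony array lay far above both sorted arrays, while the PGC colony arrays lay just below the GSC colony arrays. In deposited intensity this was 187454 and 148968 in PGC colonies, 270839 and 269114 in GSC colonies, and 3578 and 3203 in sorted cells. The Bgn probe was the 21st and 31st brightest of the array in PGC colonies, the 17th on both GSC colony arrays, and the 4242nd and 4817th in sorted cells. Quantile normalization gives equal values to equal ranks, so the SD of 0 in GSC colonies is a property of the method. Bgn was higher in PGC colonies than in sorted cells by 5.19 ± 0.14 (SE; limma adjusted p = 4.07e-06) and in GSC colonies by 5.46 ± 0.14 (limma adjusted p = 2.32e-06). Between PGC and GSC colonies it differed by -0.27 ± 0.14 and did not pass (limma adjusted p = 0.257). This last value depends on the scaling: with arrays centred on their medians it was -0.67 (limma adjusted p = 0.0266), and without normalization between arrays -0.69 (limma adjusted p = 0.0254). Without normalization, where the median of all genes shifted by 0.465, the difference of GSC colonies and sorted cells was 6.29 for Bgn, or 5.83 relative to that shift.

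Dcn encodes decorin, which decorates collagen fibrils and binds TGF-beta and several receptor tyrosine kinases. It has 2 probes, and the brighter, mMR030315, stood for the gene. This probe measured 17.06 and 16.86 in PGC colonies, 17.91 and 17.91 in GSC colonies, and 14.13 and 13.86 in sorted cells. The groups were fully separated, with GSC colonies at the top and sorted cells at the bottom. Its rank from the brightest probe was 38 and 51 in PGC colonies, 9 on both GSC colony arrays, and 1102 and 1387 in sorted cells. Dcn was higher by 2.96 ± 0.14 in PGC colonies (SE; limma adjusted p = 1.65e-05) and by 3.91 ± 0.14 in GSC colonies than in sorted cells (limma adjusted p = 5.08e-06). It was lower in PGC than in GSC colonies, by a log2 difference of -0.95 ± 0.14 (limma adjusted p = 0.00661). The other probe, mMC011564, measured 16.26 and 16.61 in PGC colonies, 17.50 and 17.61 in GSC colonies, and 12.86 and 12.86 in sorted cells. With every probe as its own feature, it differed by 3.57 ± 0.14 between PGC colonies and sorted cells, by 4.70 ± 0.14 between GSC colonies and sorted cells, and by -1.13 ± 0.14 between PGC and GSC colonies. The direction was that of the first probe in each case. For GSC colonies against sorted cells, however, the fold was 25.9 on this probe and 15 on the brighter one. The brightest probe of the array read 566326 and 532288 on the GSC colony arrays, where Dcn read 317571 and 327383. The files hold no saturation flags, and compression of the brightest Dcn and Bgn signals was not tested. On the brighter probe that difference was 4.71 without normalization between arrays, or 4.24 relative to the shift of all genes.

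Aspn encodes asporin, a relative of decorin with an aspartate-rich end, known to bind collagen and to restrain TGF-beta and BMP signals. It measured 11.86 and 11.78 in PGC colonies, 12.37 and 12.45 in GSC colonies, and 7.68 and 7.49 in sorted cells. Both sorted arrays lay under the 30th percentile, so its folds are lower bounds, set against that level. Aspn was at least 16-fold higher in PGC colonies (limma adjusted p = 4.12e-06) and at least 24.1-fold higher in GSC colonies than in sorted cells (limma adjusted p = 2.28e-06). Between the colonies it was lower in PGC, by a log2 difference of -0.59 ± 0.12 (SE; limma adjusted p = 0.0209). That call was lost without PGC colony replicate 2 (limma adjusted p = 0.0745) and without GSC colony replicate 1 or 2 (limma adjusted p = 0.0664 and 0.0879).

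**Figure D1:**
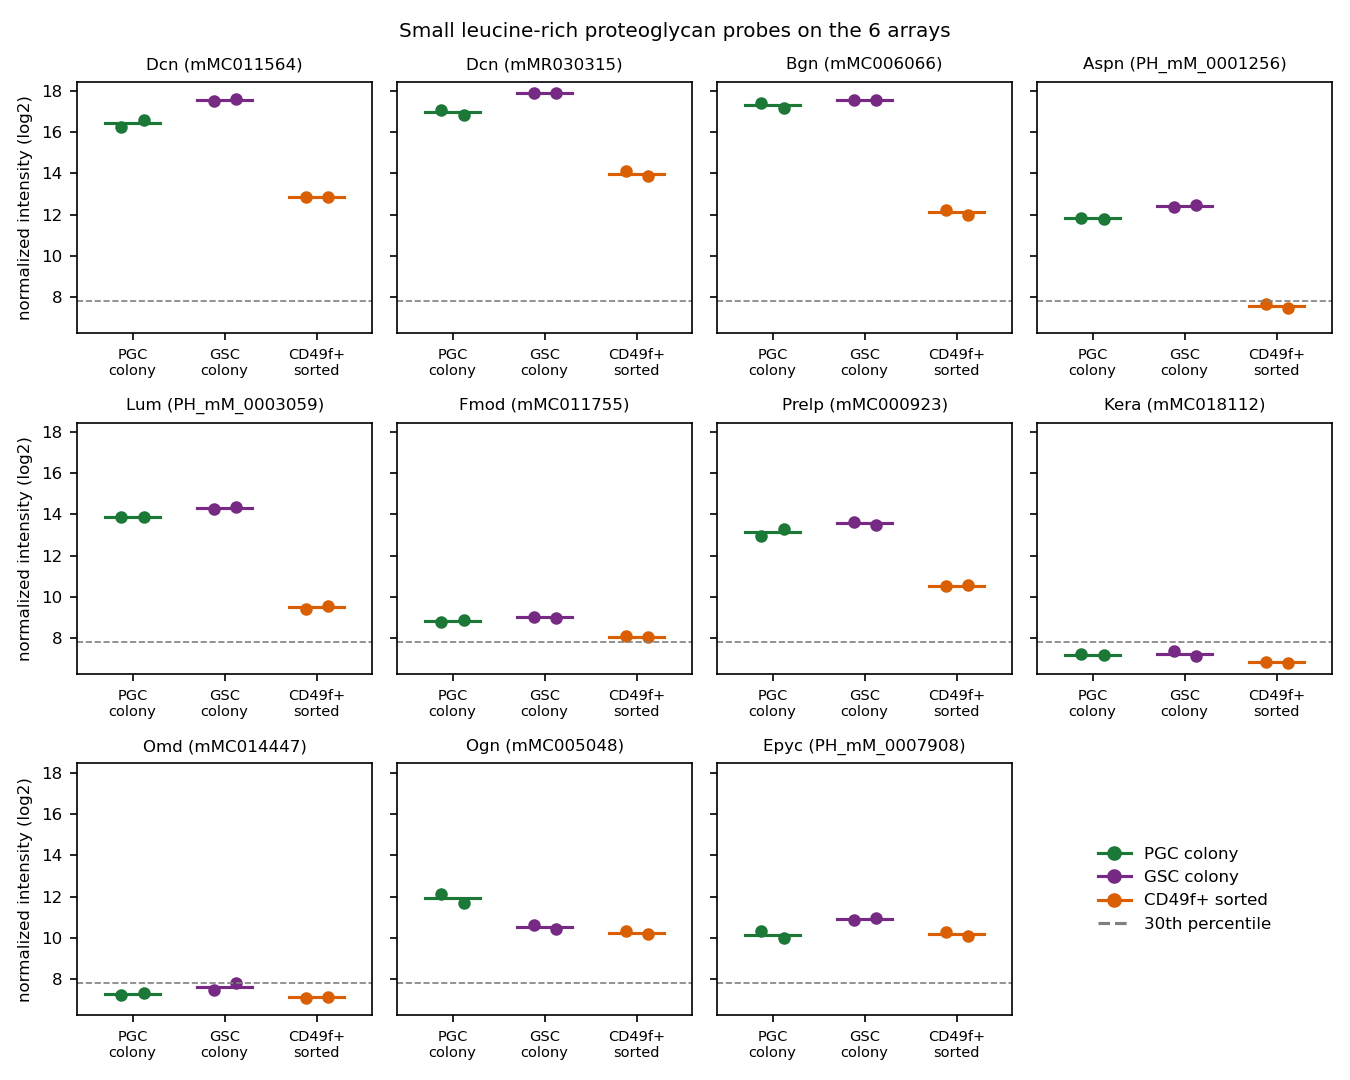
Normalized log2 intensity of the 11 probes on each array (points) and the mean of the 2 arrays of a group (line), with the 30th percentile as a dashed line. Dcn, Bgn, Aspn, Lum and Prelp are far higher in both kinds of colony than in sorted cells, Ogn stands out in PGC colonies, and Kera and Omd lie under the dashed line on all 6 arrays.

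Class II members, most of which can carry keratan sulfate, differed in how far they changed, and the signal of a probe says nothing of its level against another probe. Lum encodes lumican, a regulator of collagen fibril width known from the cornea and skin. It measured 13.87 and 13.88 in PGC colonies, 14.27 and 14.37 in GSC colonies, and 9.42 and 9.56 in sorted cells. All colony arrays lay far above the sorted ones, and the PGC colony arrays lay below the GSC colony arrays. Lum rose by 4.39 ± 0.11 in PGC colonies (SE; limma adjusted p = 4.02e-06) and by 4.83 ± 0.11 in GSC colonies against sorted cells (limma adjusted p = 2.21e-06). The difference of PGC and GSC colonies was -0.44 ± 0.11 with a limma adjusted p of 0.0477. This call lay close to the threshold and was lost in 12 of 17 other settings, whose adjusted p reached up to 0.213.

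Prelp encodes a proline- and arginine-rich repeat protein that anchors basement membranes to connective tissue. It measured 12.97 and 13.32 in PGC colonies, 13.64 and 13.49 in GSC colonies, and 10.54 and 10.56 in sorted cells. Prelp rose by 2.59 ± 0.15 in PGC colonies (SE; limma adjusted p = 3.52e-05) and by 3.02 ± 0.15 in GSC colonies against sorted cells (limma adjusted p = 1.71e-05). Between PGC and GSC colonies it differed by -0.42 ± 0.15 and did not pass (limma adjusted p = 0.112). Fmod, which encodes fibromodulin, a collagen-binding relative of lumican, changed much less. It measured 8.80 and 8.87 in PGC colonies, 9.02 and 9.0 in GSC colonies, and 8.08 and 8.07 in sorted cells. The colony arrays lay above the sorted arrays, and the sorted arrays lay just above the 30th percentile. Fmod rose by 0.76 ± 0.10 in PGC colonies (SE; limma adjusted p = 0.00130) and by 0.93 ± 0.10 in GSC colonies against sorted cells (limma adjusted p = 5.16e-04). Between the colonies it differed by -0.17 ± 0.10 (limma adjusted p = 0.312).

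The remaining class II members stayed under the filter. Kera, which encodes keratocan of the cornea, measured 7.21 and 7.21 in PGC colonies, 7.37 and 7.14 in GSC colonies, and 6.84 and 6.82 in sorted cells. Omd, which encodes osteomodulin of mineralizing tissue, measured 7.23 and 7.35 in PGC colonies, 7.45 and 7.79 in GSC colonies, and 7.11 and 7.15 in sorted cells. Neither gene reached the 30th percentile on any of the 6 arrays, so no fold is given and neither was tested.

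Class III members moved differently from the others and from each other. Ogn encodes osteoglycin, also called mimecan, a matrix protein of bone, vessel wall and other connective tissue. It measured 12.15 and 11.69 in PGC colonies, 10.62 and 10.45 in GSC colonies, and 10.33 and 10.20 in sorted cells. PGC colonies stood well above both other groups, whose arrays lay close together. Ogn was higher in PGC than in GSC colonies by 1.39 ± 0.18 (SE; limma adjusted p = 0.00389) and higher in PGC colonies than in sorted cells by 1.66 ± 0.18 (limma adjusted p = 4.56e-04). GSC colonies and sorted cells differed by 0.27 ± 0.18 and did not pass (limma adjusted p = 0.257). Without normalization between arrays that difference was 0.77 and passed (limma adjusted p = 0.00690). In that setting the median of all genes in GSC colonies against sorted cells was itself shifted by 0.465. Epyc encodes epiphycan, a proteoglycan known from growth plate cartilage. It measured 10.31 and 9.99 in PGC colonies, 10.88 and 10.97 in GSC colonies, and 10.28 and 10.10 in sorted cells. Here GSC colonies stood above both other groups, and PGC colony and sorted arrays overlapped. Epyc was higher in GSC colonies than in sorted cells by 0.73 ± 0.15 (SE; limma adjusted p = 0.00706), a call lost without sorted replicate 2 (limma adjusted p = 0.0510). It was lower in PGC than in GSC colonies, by a log2 difference of -0.77 ± 0.15 (limma adjusted p = 0.0187), lost without PGC colony replicate 2 (limma adjusted p = 0.0647). Between PGC colonies and sorted cells it differed by -0.04 ± 0.15 (limma adjusted p = 0.875).

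**Figure D2:**
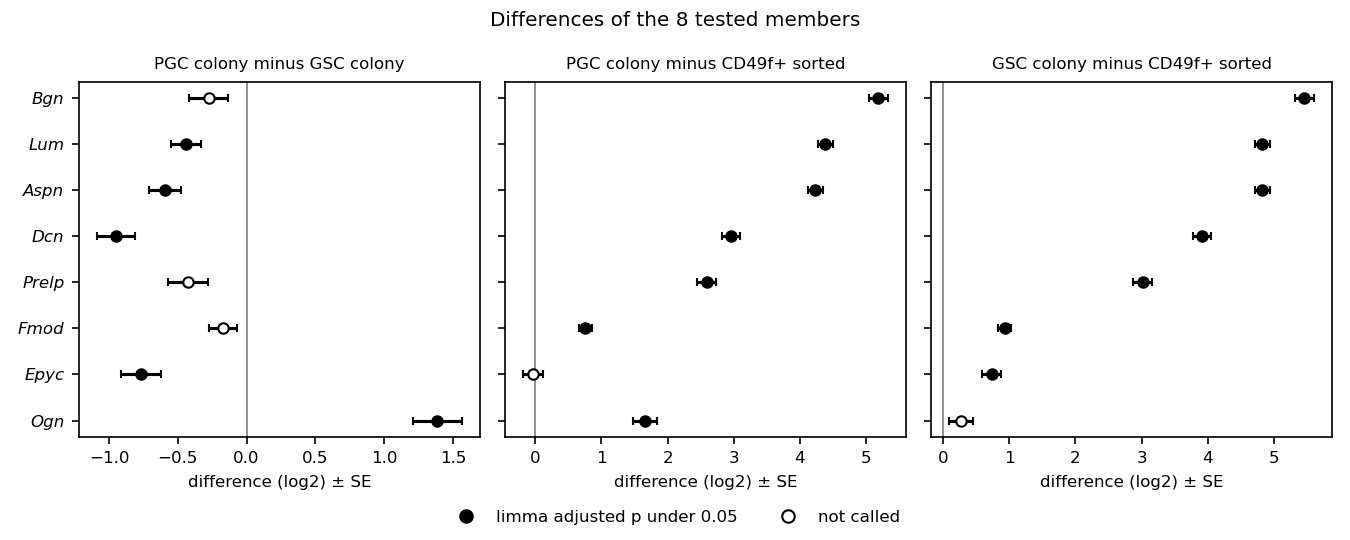
Log2 differences of the 8 tested members in the 3 comparisons (points) with their SE (bars), filled where limma's adjusted p was under 0.05. Between PGC and GSC colonies Ogn lies on the positive side at 1.39 and all others on the negative side, down to -0.95 for Dcn.

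Taken by comparison, 7 of the 8 tested members were higher in PGC colonies than in sorted cells and 1, Epyc, did not pass. In that comparison 22.8% of all tested genes were called higher, 23.2% lower and 46.0% in either direction. The members' median difference was 2.78, against -0.02 for all tested genes. In GSC colonies against sorted cells, 7 of 8 were higher and 1, Ogn, did not pass. There 22.5% of all genes were called higher, 24.5% lower and 47.1% in either direction, and the median was 3.46 for the members and -0.01 for all genes. Bgn had a larger difference than 99.9% of tested genes in PGC colonies and than 99.8% in GSC colonies, and Dcn than 98.5% and 99.1%. Epyc was at the other end of the members in PGC colonies, above 48.5% of tested genes, and Ogn in GSC colonies, above 69.6%. The comparisons with sorted cells share the sorted arrays, so they are not independent of each other. Without normalization between arrays, 80.5% of the genes called in PGC colonies against sorted cells were higher, against 49.5% with it, and 82.5% against 47.9% in GSC colonies against sorted cells.

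Between PGC and GSC colonies, 1 tested member, Ogn, was called higher and 4, Dcn, Epyc, Aspn and Lum, lower. Of all tested genes 7.08% were called higher, 7.98% lower and 15.1% in either direction. The members' median difference was -0.43 and that of all genes 0.01. Dcn lay above 3.56% of all tested genes and Ogn above 98.3%. Of the calls for lower members, 1, Dcn, passed without PGC colony replicate 2, and 2, Dcn and Epyc, passed without either GSC colony array. Dcn and Ogn were called in each of the 17 other settings.

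**Figure D3:**
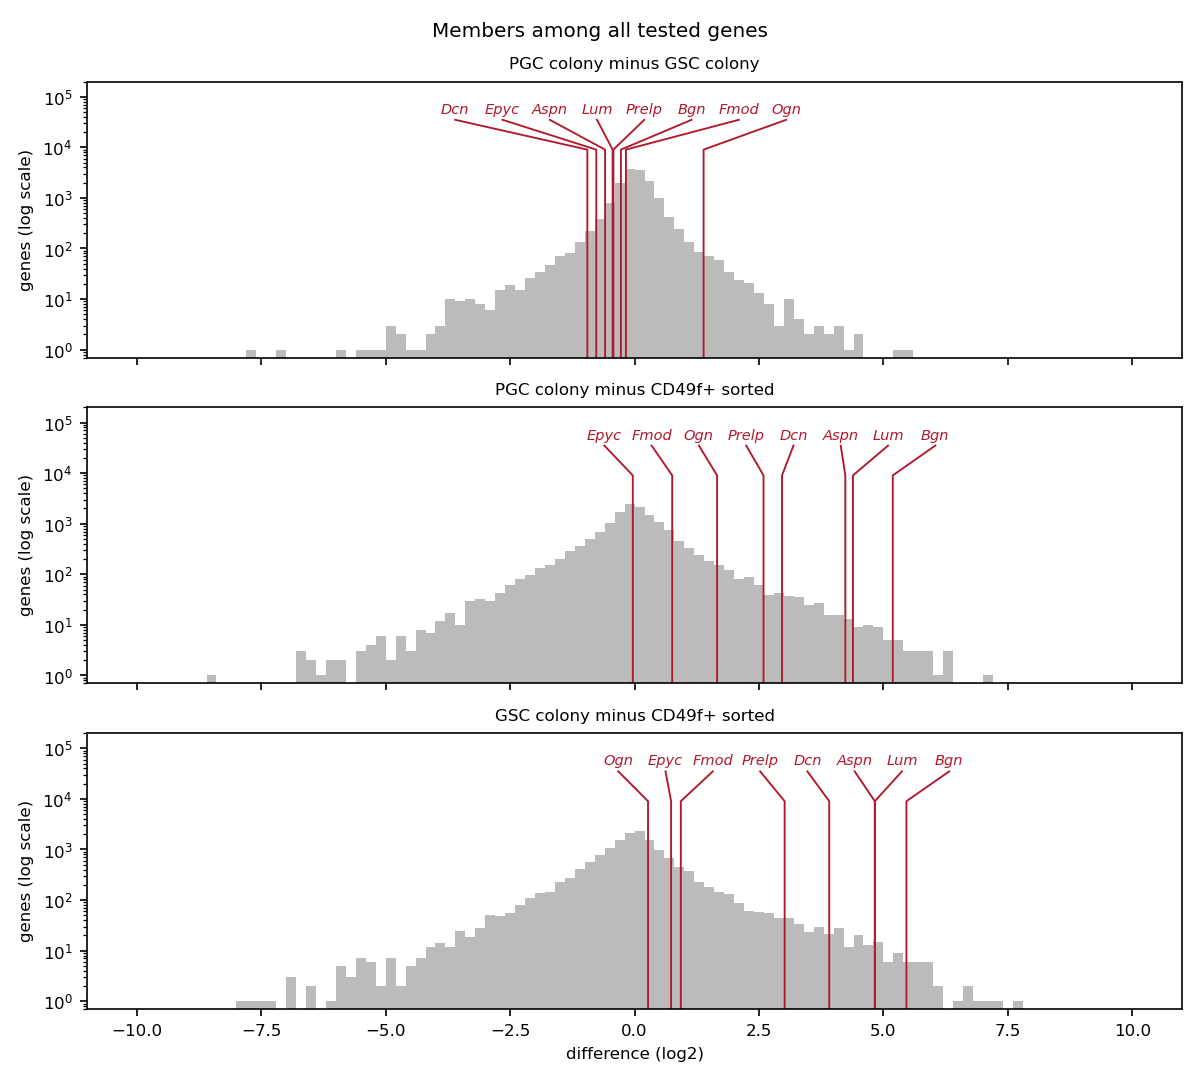
Number of all 15459 tested genes (grey bars, log scale) by log2 difference in each comparison, with a red line at each tested member. Against sorted cells Bgn, Lum, Aspn, Dcn and Prelp lie in the far right tail of both distributions, whereas between the colonies Ogn alone lies on the right.

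By order of levels and these calls, the members fell into 4 patterns. Dcn, Aspn and Lum were highest in GSC colonies, then in PGC colonies, then in sorted cells, with each step past the test. Bgn, Prelp and Fmod were higher in both colonies than in sorted cells, and the colonies were not told apart. Ogn was highest in PGC colonies, with GSC colonies and sorted cells not told apart. Epyc was highest in GSC colonies, with PGC colonies and sorted cells not told apart. A difference that missed the threshold does not show that groups were alike. The step between the colonies was lost for Lum in 12 of 17 other settings and for Aspn in 3, while Bgn gained a call in 2. Lum differed by -0.44 between the colonies and Prelp by -0.42, so the threshold alone parts these 2 genes. By these calls, Dcn and Lum shared a pattern among chromosomal neighbours, and so did Prelp and Fmod, while the others differed. On chromosome 10, Dcn and Lum were higher in both colonies, Kera lay under the 30th percentile, and Epyc was higher in GSC colonies. On chromosome 13, Aspn was brighter in both colonies, Omd stayed under the 30th percentile, and Ogn was brighter in PGC colonies. Ecm2, next to Aspn, did not pass in any comparison, with differences of 0.01 ± 0.11, -0.11 ± 0.11 and -0.13 ± 0.11 (SE) for PGC against GSC colonies, PGC colonies against sorted cells and GSC colonies against sorted cells.

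The genes with the most similar profile to each tested member were sought among the other tested genes, by Euclidean distance of log2 values over the 6 arrays, each gene centred on its own mean. This is a description over 6 arrays in 3 groups. Ptgis, which encodes prostacyclin synthase, was nearest to Dcn at a distance of 0.11, followed by the heparan sulfatase gene Sulf2 at 0.35. Lum was nearest to the mesenchymal homeobox gene Prrx1 at 0.19 and to Mxra8 at 0.20, and Aspn to S100a6 at 0.24 and Prrx1 at 0.28. Among members themselves, Aspn and Lum were the closest pair at 0.30, and Bgn and Epyc the farthest at 5.77. For Bgn the nearest genes were Pdzrn3 at 0.38 and Nupr1 at 0.47, and for Prelp Tubb6 at 0.20 and Cebpb at 0.26. For Ogn they were the potassium channel gene Kcnd2 and Lrrc15, at 0.30 each. Both of these were under 7.82 on all GSC colony and sorted arrays, so their distances rest partly on values under the filter level. The nearest genes were, for Fmod Atraid and Rab18, at 0.11 each, and for Epyc Ppcs at 0.13 and Spink2 at 0.15.

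Other leucine-rich repeat genes of the wider SLRP family rarely passed the test against sorted cells. Of all tested genes, 46.0% were called in PGC colonies and 47.1% in GSC colonies against sorted cells, and 15.1% between the colonies. With so few genes in the list, a count of 0 between the colonies is not far from that last share. Of 7 tested (Optc, Chad, Chadl, Nyx, Podn, Podnl1 and Ecm2), 0 passed limma's test in either direction in PGC colonies against sorted cells or between the colonies, where 1 gene each had an unadjusted p under 0.05 (Podn and Nyx). In GSC colonies against sorted cells 1, Chadl, was lower, by a log2 difference of -0.40 ± 0.11 (SE; limma adjusted p = 0.0269). Podn, which encodes podocan, did not pass against sorted cells, with differences of 0.38 ± 0.15 in PGC colonies and 0.39 ± 0.15 in GSC colonies (limma adjusted p = 0.0841 and 0.0716). Chad, which encodes chondroadherin, varied most between arrays of a group, with an SD of 0.66 in PGC colonies, 1.72 in GSC colonies and 0.85 in sorted cells.

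Collagens that SLRPs bind rose with them. Of 13 tested collagen partners, 13 were higher in PGC colonies and 12 in GSC colonies than in sorted cells, with medians of 3.19 and 3.44. Of all tested genes, 22.8% and 22.5% were called higher. Col6a3, a chain of collagen VI, rose by 6.00 ± 0.11 in PGC colonies and 5.83 ± 0.11 in GSC colonies, and Col5a1, a chain of fibril-starting collagen V, by 4.64 ± 0.18 and 4.75 ± 0.18 (SE). Col1a2, a chain of collagen I, rose by 4.13 ± 0.28 and 4.42 ± 0.28, while the probe of Col1a1 was too dim on all 6 arrays to be tested. Between the colonies 2 partners were higher in PGC and 4 lower (7.08% and 7.98% of all tested genes). The cartilage collagen gene Col2a1 rose by 1.93 ± 0.15 (SE), with 10.26 ± 0.16 in PGC colonies and 8.33 ± 0.20 in GSC colonies (SD, n = 2). Col11a1 was lower in PGC colonies, by a log2 difference of -2.02 ± 0.10.

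Of the enzymes that build the sugar chains, those for chondroitin and dermatan sulfate were called higher more often than the 22.8% and 22.5% of all tested genes called higher in PGC and GSC colonies against sorted cells. Of 21 tested genes of linker, chondroitin and dermatan sulfate synthesis, 14 were higher and 2 lower in PGC colonies than in sorted cells, and 16 were higher and 2 lower in GSC colonies, with medians of 0.98 and 1.05. The chondroitin 6-O-sulfotransferase gene Chst3 rose by 2.48 ± 0.10 (SE) in PGC colonies, and the 4-O-sulfotransferase gene Chst11 by 2.92 ± 0.19 in GSC colonies. Csgalnact1, which starts chondroitin chains, rose by 1.95 ± 0.14 in PGC colonies and by 2.80 ± 0.14 in GSC colonies. Xylt1, a xylosyltransferase that puts the first sugar on the core protein, was lower in both, at -1.07 ± 0.13 and -1.46 ± 0.13. Between the colonies 3 of these genes were higher in PGC and 4 lower (7.08% and 7.98% of all tested genes). Chst11 was at -1.86 ± 0.19, Chst12 at -1.39 ± 0.11 and Chsy3 at 1.27 ± 0.10. Of 7 tested genes of keratan sulfate synthesis, 2 were higher in PGC colonies and 3 in GSC colonies than in sorted cells, and the first count is near the 22.8% over all tested genes. The medians were 0.28 and 0.56, against -0.02 and -0.01 for all genes. Between the colonies 2 were higher in PGC and 1 lower (7.08% and 7.98% of all tested genes). The sulfotransferase gene Chst2 measured 11.93 ± 0.14 in PGC colonies, 10.02 ± 0.55 in GSC colonies and, among sorted cells, 8.50 ± 0.06 (SD of 2 arrays), and Chst1 measured 11.60 ± 0.18 in PGC colonies, 10.53 ± 0.03 in GSC colonies and 9.45 ± 0.09 in sorted cells.

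**Figure D4:**
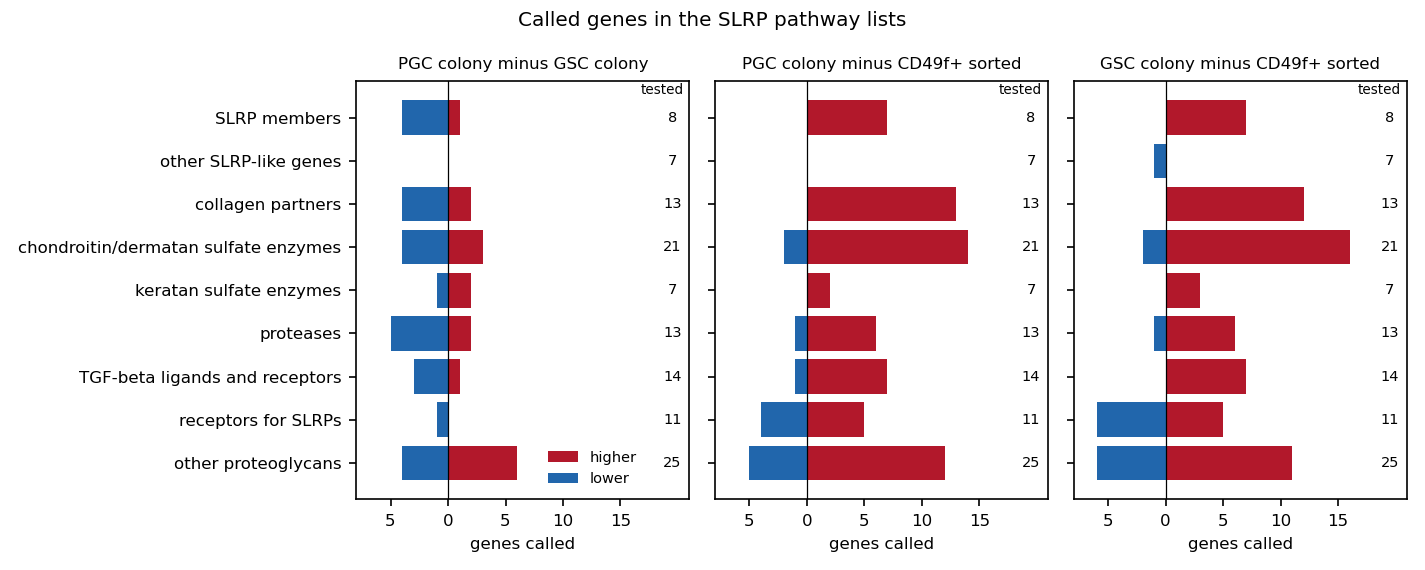
Number of genes called higher (red, right) and lower (blue, left) in 9 lists for each comparison, with the number tested at the right edge. Members and collagen partners are called higher in nearly all cases against sorted cells, and the other SLRP-like genes in none.

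Ligands and receptors that SLRPs bind moved less evenly. Of 14 TGF-beta ligands, receptors and latency proteins, 7 were higher and 1 lower in PGC colonies than in sorted cells, and 7 were higher and 0 lower in GSC colonies. Of all tested genes, 22.8% and 22.5% were called higher, and 23.2% and 24.5% lower. Tgfb1 measured 12.46 ± 0.10 in PGC colonies, 11.45 ± 0.11 in GSC colonies and, among sorted cells, 10.33 ± 0.06 (SD of 2 arrays), and each step passed the test. Tgfb3 rose by 1.22 ± 0.11 in PGC colonies and by 1.37 ± 0.11 in GSC colonies (SE), and Tgfb2 passed in no comparison, with differences of 0.05 ± 0.14 and 0.26 ± 0.14 against sorted cells. The receptor gene Tgfbr3, betaglycan, rose by 2.50 ± 0.11 and 4.43 ± 0.11, and Tgfbr2 by 1.86 ± 0.20 and 3.96 ± 0.20. Both were lower in PGC than in GSC colonies, by log2 differences of -1.94 ± 0.11 and -2.10 ± 0.20. Of 11 tested receptors reported to bind SLRPs, 5 were higher and 4 lower in PGC colonies, and 5 were higher and 6 lower in GSC colonies, where 46.0% and 47.1% of all tested genes were called in either direction. The medians were -0.13 and -0.37. Egfr, the EGF receptor, to which decorin binds, measured 13.62 ± 0.18 in PGC colonies, 13.33 ± 0.02 in GSC colonies and, among sorted cells, 8.04 ± 0.09 (SD of 2 arrays). Tlr2, a receptor for soluble biglycan, fell at least 3.86-fold in PGC colonies against sorted cells and was lower in GSC colonies by a log2 difference of -1.86 ± 0.13.

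Among 13 tested proteases that cut SLRPs or process procollagen, 6 were higher and 1 lower in each kind of colony than in sorted cells. The lower gene was Mmp2 in PGC colonies, at -0.52 ± 0.16 (SE), and Mmp9 in GSC colonies, at -0.72 ± 0.13. Of all tested genes, 22.8% and 22.5% were called higher in PGC and GSC colonies, and 23.2% and 24.5% lower. The medians of the list were 0.59 and 0.53, against -0.02 and -0.01 for all genes. Mmp14, a membrane-bound metalloproteinase, rose by 3.19 ± 0.14 in PGC colonies and 2.98 ± 0.14 in GSC colonies (SE). Between the colonies 2 were higher in PGC and 5 lower, where 7.08% of all tested genes were called higher and 7.98% lower. Mmp9 rose by 3.11 ± 0.13, whereas Mmp3, known to cut decorin, was lower in PGC colonies by a log2 difference of -5.24 ± 0.11. Of 25 other tested proteoglycans, 12 were higher and 5 lower in PGC colonies, and 11 were higher and 6 lower in GSC colonies than in sorted cells. The counts of lower genes are near the 23.2% and 24.5% over all tested genes, and 22.8% and 22.5% of those were called higher. The large chondroitin sulfate proteoglycan gene Vcan rose by 4.11 ± 0.11 and 4.73 ± 0.11. Between the colonies 6 were higher in PGC and 4 lower (7.08% and 7.98% of all tested genes). The largest of these differences was that of Srgn, which encodes serglycin, a proteoglycan of secretory granules: it measured 7.68 ± 0.01 in PGC colonies, under the 30th percentile on both arrays, and 14.85 ± 0.02 in GSC colonies (SD of 2 arrays), a fall of at least 131-fold (limma adjusted p = 4.79e-06). Gpc3, a glypican gene, rose by 1.40 ± 0.11, and Hapln1, which links hyaluronan to proteoglycans, was at least 3.28-fold higher in PGC colonies.

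Markers of several cell types also differed between the groups, some in the direction of the SLRPs and others against it. For the counts against sorted cells, 22.8% of all tested genes were called higher and 23.2% lower in PGC colonies. In GSC colonies these shares were 22.5% and 24.5%. All 10 tested fibroblast markers were higher in both kinds of colony than in sorted cells. The summed deposited intensity of the fibroblast list was 184799 to 205031 on PGC colony arrays, 389092 to 402419 on GSC colony arrays and 6051 to 6410 on sorted arrays. Between the colonies 2 of the tested fibroblast markers were called higher in PGC and 6 lower (7.08% and 7.98% of all tested genes). Peritubular myoid markers summed to 39424 to 42686 on PGC colony arrays, 93100 to 96817 on GSC colony arrays and 3800 to 4046 on sorted arrays. Of the 4 tested genes of that list, 3 were higher and 1 lower in PGC colonies than in sorted cells, and 4 were higher in GSC colonies. The lower one was Myh11, at 8.32 ± 0.16 in PGC colonies against 9.06 ± 0.08 in sorted cells (SD of 2 arrays; limma adjusted p = 0.00388). Myh11 and Des, muscle genes, were lower in PGC than in GSC colonies, by log2 differences of -3.65 ± 0.13 and -3.32 ± 0.15 (SE). All 10 macrophage and leukocyte markers were lower in both kinds of colony, with sums of 7601 to 8320 on PGC colony arrays, 2473 to 3342 on GSC colony arrays and 87917 to 95576 on sorted arrays. Sertoli markers were lower in 9 of 9 cases in PGC colonies and in 8 of 9 in GSC colonies. All 7 endothelial markers were lower in PGC colonies, and 6 were lower and 1 higher in GSC colonies. Of 10 tested germ cell markers, 0 were higher and 4 lower in PGC colonies, and 6 were higher and 1 lower in GSC colonies. Of 4 Leydig markers, 0 were higher and 2 lower in PGC colonies, and 1 was higher and 2 lower in GSC colonies. The Leydig counts rest on 4 genes, too few to set apart from the shares over all tested genes. Of 7 tested cartilage and bone markers 2 were higher and 1 lower in PGC colonies than in sorted cells, 0 were higher and 2 lower in GSC colonies, counts near or below the shares over all tested genes (22.8% higher and 23.2% lower, and 22.5% and 24.5%), and Matn1 and Ibsp were dimmer than the 30th percentile on every array. The part of these markers in the SLRP differences was not tested. Culture and selection by CD49f differ together between colonies and sorted cells and cannot be told apart, and PGC colonies differ from both other groups in stage and source tissue as well, and possibly in sex.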

How the data were processed

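Each of the 6 arrays measured Cy5-labelled RNA of 1 sample. The values deposited by the authors are linear intensity, for 26423 probes. Per the labels, 1 µg of total RNA with an integrity number of at least 6 was amplified and labelled. How the authors corrected background or scaled these values is not stated in the labels. Of the arrays, 4 held values below 0 (52, 310, 86 and 474 probes). The table carries no detection or saturation flags, and precision is limited by the small number of arrays.

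Probe symbols came from the platform annotation (21876 probes with 1 symbol, 0 with several, 4547 with none), and Entrez identifiers of 21825 were found in RefSeq. Intensities were background-corrected (normexp, offset 50), log2-transformed and then quantile normalized with limma 3.58.1 in R 4.3.3. The probe with the highest mean stood for a gene. One fit of all 6 arrays (lmFit, eBayes, 3 residual degrees of freedom, no block) gave the 3 comparisons. The fit was tested on simulated data, where most of the smaller changes put in were missed. A fold is a lower bound where the dimmer group had both arrays below the 30th percentile, each then set at that level if lower. Percentile and summed intensity of marker lists use 1 probe a gene.

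The members and lists were chosen with earlier results of these data known. The text names all members with every probe, genes among the 3 largest rises and 3 largest falls past the threshold in a list and comparison, Tgfb1, Tgfb2 and Tgfb3, and the 2 genes most like each tested member, leaving out predicted-gene and clone names. Ecm2, Podn, Nyx and Chad, the listing of all 7 wider family genes, and Col1a1 and other genes under the filter were named after their values were seen. Alternatives changed the background step, normalization, filter, probe rule, arrays in the fit, variance prior and replicate block, and left out each array in turn.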

Additional observations from a re-analysis of the deposited data

How the results depend on the processing

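Limits: with 2 arrays a group, calls near the threshold turn on single arrays, and probes near the 30th percentile, such as those of Fmod, Kera and Omd, carry little signal over background. The 8 tested members had 17 alternatives per comparison, or 16 for Fmod, which a filter at the 50th percentile removed. Of all member differences so obtained, 381 kept their direction and their side of the threshold, 17 lost the call, 3 gained one and 4 changed sign. Lost calls were those of Lum (12) and Aspn (3) between the colonies and of Epyc between the colonies and between GSC colonies and sorted cells (1 each). Gained calls were those of Bgn between the colonies (2) and of Ogn between GSC colonies and sorted cells (1). The sign changes all concerned Epyc in PGC colonies against sorted cells, which was -0.04 and not called: 0.40 without normalization between arrays, 9.1e-04 with median centring, 0.13 without PGC colony replicate 2 and 0.06 without sorted replicate 1, none of them called. Without normalization the median of all genes in that comparison shifted by 0.423, and the 0.40 of Epyc lay below that shift. Over all left-out arrays the Epyc difference ran between -0.20 and 0.13. The cause was not tested.

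Members called lower in PGC than in GSC colonies numbered 4, and 1 to 3 when arrays were left out in turn. Over all genes without normalization between arrays, 7573 were higher and 1838 lower in PGC colonies than in sorted cells, and 8179 higher and 1732 lower in GSC colonies, with the median gene shifted by 0.423 and 0.465. Between PGC and GSC colonies 1095 genes were higher, 698 in a fit of the 2 groups alone (fewer arrays) and 620 to 1118 with an array left out, and 1234 were lower, 781 to 1067 with an array left out. Genes lower in GSC colonies than in sorted cells numbered 3793, and 2495 to 4036 with an array left out.

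Replicate numbers occur in all 3 groups, but nothing in the labels ties arrays of equal number together. The differences between replicate 2 and 1 correlated across genes at -0.18 for PGC and GSC colonies, 0.33 for PGC colonies and sorted cells and -0.34 for GSC colonies and sorted cells. With a replicate block, 3 members were lower and 1 higher in PGC than in GSC colonies, and 7 were higher in each kind of colony than in sorted cells. Lum lost its call there (limma adjusted p = 0.0763), and all other member calls were as without the block.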
